A study of Mus musculus with 12 samples.

Results

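The comparison described here asks what loss of AF10 still changes in reprogramming cells when the enzyme it works with, DOT1L, is blocked. It sets 2 libraries of AF10-deleted cells against 2 libraries of cells with intact AF10, 4 of the 12 RNA-seq libraries of the series, all taken on day 4 of reprogramming in the DOT1L inhibitor SGC0946. Libraries with the same replicate number were paired. Both groups were mouse embryonic fibroblasts (MEFs) of a conditional AF10 line that carried floxed AF10 alleles, the OSKM cassette (Pou5f1, Sox2, Klf4 and Myc) and rtTA, and both received 2 µg/mL doxycycline and 5 µM SGC0946. The control group, called fl here, was infected with an empty adenovirus and kept genotype AF10 fl/fl. The AF10-deleted group received an adenovirus that expressed Cre recombinase from the CMV promoter. There was no group of cells lacking the floxed alleles that was given the Cre virus, so an effect of the virus and one of losing AF10 cannot be told apart. Reprogramming cells grew on DR4 feeder MEFs, and RNA of the feeder cells was not separated from theirs. The same comparison in the vehicle DMSO on day 4 and in MEFs before reprogramming, with 2 libraries per group each, is given beside it.

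AF10, encoded by Mllt10, is a cofactor of DOT1L, the methyltransferase that marks lysine 79 of histone H3 in the bodies of transcribed genes. AF10 helps DOT1L to add the higher methylation states of that residue, and it also reads histone H3 through its zinc fingers. SGC0946 occupies the cofactor pocket of DOT1L and stops its catalysis while leaving the proteins in place. In reprogramming of fibroblasts, inhibition of DOT1L is known to favour the loss of the fibroblast program.

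The 4 libraries held 14602536 to 17531504 expected counts, estimates of the reads that belong to each gene. Mllt10 was at 54.1 and 55.7 CPM (counts scaled to a common library size with TMM factors) in fl replicates 1 and 2, and at 41.7 and 40.5 CPM in AF10-deleted replicates 1 and 2. Both AF10-deleted libraries lay below both fl libraries, with 77% and 72.8% of the paired fl level left. Counts are given per gene, so loss of the floxed exons is seen here only through the whole transcript, and the AF10 protein that was left was not measured. Dot1l itself was at 71.3 and 58.3 CPM in fl and at 68.1 and 59.7 CPM in AF10-deleted cells (log2 change -0.02 ± 0.077, SE). Summed counts of Y-linked genes were 4035 to 4780 in all libraries with replicate number 1 and 8 to 52 in those with number 2. The replicate numbers thus mark cells of different sex. The p-values below weigh a change against the spread left after pairing, estimated over all 12 libraries and steadied with other genes. They do not measure the spread between many animals. Of fibroblast genes, vimentin (Vim) was at 7550 to 7882 CPM over the 4 libraries and at 4347 and 5272 CPM in MEF_fl replicates 1 and 2. Other fibroblast genes stood far below MEF_fl: the collagen chain Col1a2 was at 3154 to 4018 CPM against 17206 and 11932 CPM, Col1a1 at 1594 to 2222 against 17604 and 11779 CPM, and the proteoglycan decorin (Dcn) at 124 to 144 against 1516 and 467 CPM. Markers of other cell types, some of which fibroblasts and reprogramming cells also express, were summed over the genes tested. The macrophage and blood genes were at 67.0 to 84.1 CPM in fl and 66.3 to 78.5 CPM in AF10-deleted cells, and skeletal and cardiac muscle genes at 35.9 to 40.2 and 35.3 to 36.9 CPM. Keratinocyte genes were at 166 to 215 and 180 to 218 CPM, adipocyte genes at 230 to 291 and 251 to 277 CPM, epithelial genes at 334 to 354 and 351 to 361 CPM, and chondrocyte and osteoblast genes at 2741 to 3401 and 2921 to 3711 CPM. These ranges overlapped between the groups, whereas the sum of neural genes, at 194 to 197 CPM in fl and 200 to 233 CPM in AF10-deleted cells, did not. Taken singly, each of the 11 neural genes tested overlapped between the groups, while 28.7% of all genes tested did not. Of the 11, 5 had a positive and 6 a negative log2 change, with a median of -0.002. The part of these cell types in the results was not tested. Of the endothelial list, 3 of 8 genes passed the filter on low counts and summed to 82.5 to 123 CPM in fl and 81.7 to 120 CPM in AF10-deleted cells, and Cdh5, the endothelial cadherin, was at 0.22 to 0.82 CPM.

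Few genes passed the test under SGC0946. Of 13936 genes tested, 24 (0.172%) were called at an adjusted p under 0.05 (edgeR quasi-likelihood F test with a replicate block, Benjamini-Hochberg adjusted over all genes tested), 10 higher (0.0718%) and 14 lower (0.1%) in AF10-deleted cells. The growth factor Igf2, the matrix genes Postn and Lox, the IGF-binding protein Igfbp5 and the angiopoietin-like genes Angptl4 and Angptl7 fell. Nr4a1 and Arc, immediate early genes, rose. Changes were small: the smallest called log2 change was 0.34 in size, and 1 called gene, Rangrf, exceeded 1. In DMSO the same test called 939 genes (6.74%), and in MEFs 134 (0.962%). The median log2 change over all genes was 3e-04, and 50.1% of genes had a positive one.

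These calls rest on the pairing. With no replicate block the edgeR test called 0 genes under SGC0946 (251 genes had an unadjusted p under 0.05, against 1081 with the block and 697 expected by chance), and DESeq2 with no replicate block called 2, both higher and neither among the 24. Leaving out fl replicate 2 left 3 genes higher and 0 lower, and Snhg11 alone of the 24 was still called. Without AF10-deleted replicate 1 the counts were 9 and 4, without AF10-deleted replicate 2 they were 4 and 12, and without fl replicate 1 they were 15 and 11. The 24 genes kept their sign under all alternatives that gave a value, which their choice by this test largely fixes. For 18 of the 24 the groups did not overlap in CPM, beside 28.7% of all genes tested (14.7% above and 14% below).

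**Figure D1:**
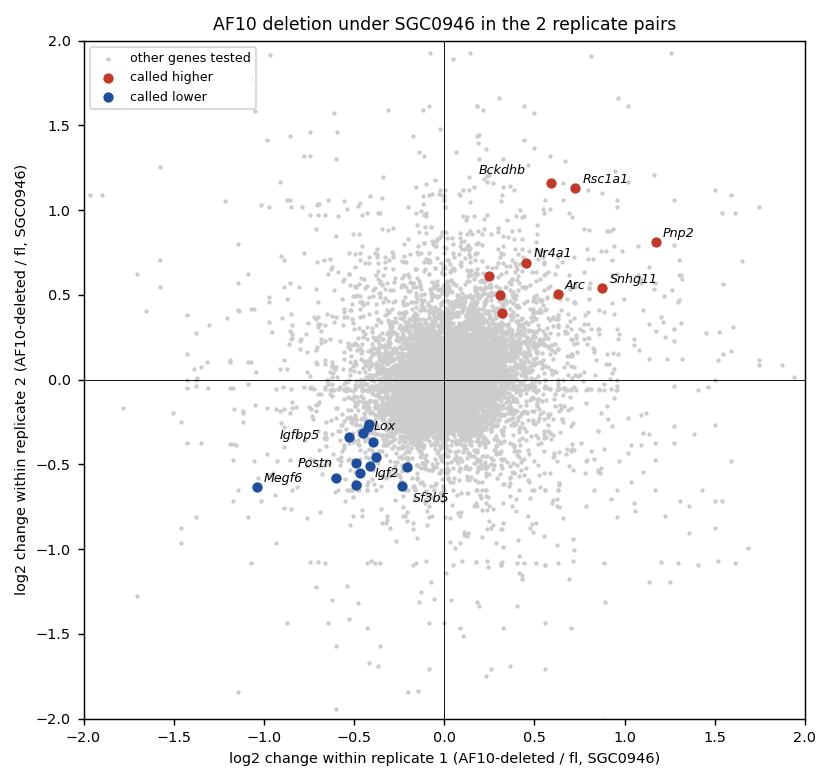
Log2 change after AF10 deletion under SGC0946 within replicate 1 (horizontal axis) and within replicate 2 (vertical axis), from CPM with a prior count of 2. Each point is 1 of 13936 genes, 31 of which lie beyond the axes; red points were called higher and blue points lower, and Rangrf is not drawn in colour. The coloured points lie in the upper right and lower left quadrants, while the cloud of all genes shows little slope (Pearson r = 0.0915 over 12850 genes with a mean CPM of at least 1).

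Igf2 and Igfbp5, of the insulin-like growth factor (IGF) axis, were among the genes that fell. Igf2, a paternally expressed fetal growth factor, was at 537 and 861 CPM in fl replicates 1 and 2 and at 388 and 587 CPM in AF10-deleted replicates 1 and 2. Within each pair the AF10-deleted library was lower, but the higher AF10-deleted library exceeded the lower fl library, so the groups overlapped. Igf2 fell by 0.51 ± 0.077 (log2, SE, n = 2 per group; edgeR adjusted p = 0.00218, and 0.00436 to 0.0857 with 1 of the 4 libraries left out). In bulk RNA, fewer cells that express a gene and less RNA per cell cannot be told apart, here and below. Igfbp5, a secreted protein that binds IGFs and holds them in the matrix, was at 165 and 184 CPM in fl and at 114 and 145 CPM in AF10-deleted cells. Its groups did not overlap, and it fell by 0.43 ± 0.078 (edgeR adjusted p = 0.0112, and 0.0414 to 0.381 with 1 library left out).

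Igf1, the related ligand best known as the mediator of growth hormone, had 45.7 and 43.6 CPM in fl and 30.3 and 31.5 CPM in AF10-deleted cells. Both AF10-deleted libraries lay below both fl libraries, yet the log2 change of -0.53 ± 0.115 did not pass (edgeR adjusted p = 0.0825). The receptors did not pass. Igf1r, the signalling receptor of both ligands, had a log2 change of -0.12 (adjusted p = 0.693, edgeR), and Igf2r, which clears Igf2 from the surface, one of -0.10 (adjusted p = 0.787, edgeR). The binding proteins Igfbp2, Igfbp3, Igfbp4, Igfbp6 and Igfbp7 were at -0.18, 0.01, -0.17, -0.08 and 0.01, and none was called. Of 23 genes tested in the list of IGF and imprinted growth genes, Igf2 and Igfbp5 fell, 0 rose and 20 had a negative log2 change, with a median of -0.10. Imprinted members outside the IGF axis were the placental and mesodermal gene Mest at -0.25 and the Notch-related Dlk1 at -0.45, neither of which passed (edgeR adjusted p = 0.217 and 0.41). Over all genes tested 6982 were positive and 6954 negative.

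Genes of the extracellular matrix gave single calls rather than a shift of whole families. Postn encodes periostin, a matricellular protein that binds collagen and integrins and supports collagen cross-linking. Its change was nearly equal in both pairs, and its core promoter is shown as the regulatory sequence of that gene, with a match to the TATA box in capitals. RefSeq gives Postn a pair of promoter windows, and the other one, chr3:54359017-54359316, holds no TATAAA in the 250 bases before its start. The stretch shown is chr3:54360987-54361106 (mouse build GRCm38.p6, plus strand, RefSeq), which ends 1 base before the transcription start:
Postn promoter: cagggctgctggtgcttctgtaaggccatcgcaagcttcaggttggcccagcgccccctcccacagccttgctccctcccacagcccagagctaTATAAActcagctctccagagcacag
The TATAAA match covers bases -26 to -21 from the start. Of 32851 mouse promoter windows, searched over the 250 bases before the start, 12.4% hold TATAAA on either strand. In 2.26% it begins 35 to 20 bases before the start. The match is a description of the letters only.

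Postn was at 98.3 and 80.5 CPM in fl and at 70.0 and 57.2 CPM in AF10-deleted replicates 1 and 2. The groups did not overlap, and each AF10-deleted library kept nearly the same share of its pair, 71.2% and 71.1%. Postn fell by 0.49 ± 0.084 (log2, SE; edgeR adjusted p = 0.008, and 0.0103 to 0.315 with 1 library left out). In MEF_fl it stood at 4337 and 2929 CPM, so what remained on day 4 was a small part of the fibroblast level. Lox, the lysyl oxidase that oxidises lysines in collagen and elastin so that fibres can cross-link, was at 755 and 675 CPM in fl and at 552 and 542 CPM in AF10-deleted cells. Here too the AF10-deleted libraries lay below both fl libraries. Lox fell by 0.38 ± 0.073 (edgeR adjusted p = 0.0178, and 0.0434 to 0.428 with 1 library left out). Megf6, a secreted protein with many EGF-like repeats, was the called gene with the steepest fall, from 11.8 and 8.57 CPM in fl to 5.70 and 5.48 CPM in AF10-deleted cells. Its groups did not overlap (log2 change -0.87 ± 0.145, edgeR adjusted p = 0.00599, and 0.0131 to 0.373 with 1 library left out).

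Relatives of these genes were described from lists. Among 20 lysyl oxidase and elastic fibre genes Lox alone was called, 16 were negative and the median was -0.05. Loxl1, the enzyme that maintains elastic fibres, had 280 and 261 CPM in fl and 232 and 213 CPM in AF10-deleted cells, without overlap, and missed the threshold (log2 change -0.28, edgeR adjusted p = 0.146). Mfap4, an elastic fibre glycoprotein, also lay lower in each pair at -0.35 (edgeR adjusted p = 0.0881). The elastin gene Eln was at -0.05 and the fibrillin Fbn1 at -0.05. Of 20 matricellular genes Postn was the 1 called, and thrombospondin Thbs1 (0.04), Sparc (-0.03) and tenascin Tnc (-0.10) were close to 0. None of 24 collagen genes was called, and their median was 0.03. Of 29 fibroblast and matrix genes 0 were called, with a median of -0.05, and their summed level was 31950 and 30710 CPM in fl and 31370 and 30650 CPM in AF10-deleted replicates 1 and 2.

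The genes that fell differed in their MEF level. In MEF_fl replicates 1 and 2, Igf2 was at 7012 and 7778 CPM, Igfbp5 at 4288 and 4831 CPM, Lox at 3747 and 3605 CPM and Megf6 at 249 and 86.0 CPM, all above their day 4 levels. Rpl26 at 463 and 442 CPM, Rps16 at 378 and 357 CPM, Angptl7 at 5.45 and 30.2 CPM, Angptl4 at 9.01 and 11.9 CPM and Fgl2 at 19.2 and 7.59 CPM stood below theirs. In MEFs, AF10 deletion left Igf2, Igfbp5, Postn, Lox and Megf6 with log2 changes of 0.02, -0.04, 0.03, -0.07 and 0.00 (edgeR adjusted p from 0.948 to 1). The share of feeder RNA in the day 4 libraries was not tested.

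**Figure D2:**
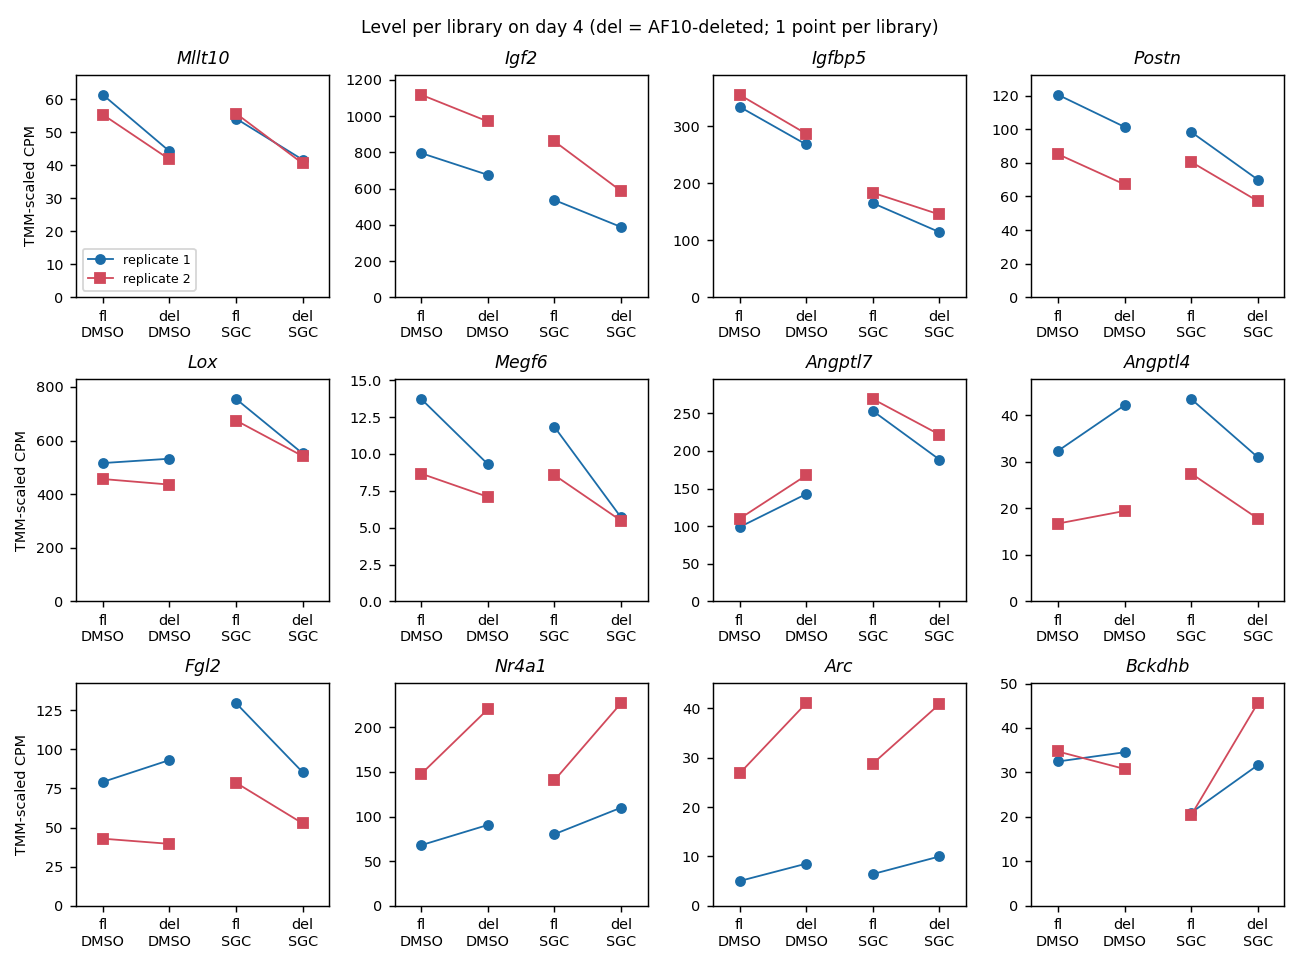
Level of 12 genes in each day 4 library, in TMM-scaled CPM on an axis that starts at 0, with fl and AF10-deleted (del) libraries of the same replicate joined by a line. Under SGC0946 the lines of Mllt10, Igf2, Igfbp5, Postn, Lox, Megf6, Angptl7, Angptl4 and Fgl2 go down in both replicates and those of Nr4a1, Arc and Bckdhb go up; in DMSO the lines of Angptl7 and Angptl4 go up.

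Angptl7, Angptl4 and Fgl2 fell as well. Angptl7, an angiopoietin-like protein of the cornea and connective tissues, was at 253 and 269 CPM in fl and at 188 and 222 CPM in AF10-deleted cells. The groups did not overlap, and Angptl7 fell by 0.35 ± 0.067 (edgeR adjusted p = 0.0178, and 0.0602 to 0.349 with 1 library left out). Its locus lies inside that of Mtor, whose level was even (log2 change 0.02). Angptl4, a secreted inhibitor of lipoprotein lipase, was at 43.5 and 27.5 CPM in fl and at 31.0 and 17.8 CPM in AF10-deleted replicates 1 and 2. The groups overlapped across replicates while each pair went down, and Angptl4 fell by 0.56 ± 0.106 (edgeR adjusted p = 0.0178, and 0.019 to 0.41 with 1 library left out). Fgl2, a fibrinogen-like protein with prothrombinase and immune-regulatory roles, went from 130 and 78.6 CPM to 85.4 and 52.6 CPM. It too overlapped across replicates (log2 change -0.59 ± 0.105, edgeR adjusted p = 0.0235, and 0.0333 to 0.354 with 1 library left out), and it shares its locus with Ccdc146, which did not pass the filter on low counts. Other angiopoietin-like genes, looked up after these values were seen, were not called: Angptl1 was at -0.21, Angptl2 at -0.10 and Angptl6 at -0.58.

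Nr4a1 was the gene that rose with the lowest p, Rangrf aside. It encodes an orphan nuclear receptor that is switched on within minutes by growth factors, cAMP and calcium, and its promoter is known for cAMP response elements. The 250 bases before its start, chr15:101266596-101266845 (GRCm38.p6, plus strand, RefSeq), are shown for that reason, with each match to TGACG, the core of such an element, in capitals on either strand (CGTCA is its reverse complement):
Nr4a1 promoter: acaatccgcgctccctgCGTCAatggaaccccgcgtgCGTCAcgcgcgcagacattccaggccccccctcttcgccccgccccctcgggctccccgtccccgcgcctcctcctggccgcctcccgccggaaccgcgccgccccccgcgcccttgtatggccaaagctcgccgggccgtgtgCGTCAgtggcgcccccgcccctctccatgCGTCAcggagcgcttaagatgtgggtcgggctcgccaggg
There are 4 matches, at bases -233 to -229, -213 to -209, -69 to -65 and -40 to -36. Of 32851 promoter windows, searched over the 250 bases before the start, 17.8% hold at least 1 TGACG on either strand and 0.137% hold 4 or more. The full palindrome TGACGTCA, which contains this core, is in 1.55% and is absent from the stretch shown. Among the called genes it was found only before Rpl26, which fell. TGACG also lay before Rpl26, Hnrnpa0, Rps16, Mllt10 and Igf2, all of which fell. The matches are a description of the letters only. Promoter windows were at hand for 18 of the 24 called genes.

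Nr4a1 was at 80.2 and 141 CPM in fl and at 110 and 227 CPM in AF10-deleted replicates 1 and 2. Replicate 2 was the higher one in both groups, so the groups overlapped although each pair went up. Nr4a1 rose by 0.58 ± 0.081 on the log2 scale (edgeR adjusted p = 0.00203), and of the 4 libraries only the removal of fl replicate 2 ended the call (adjusted p = 0.124). It was also called in DMSO, at 0.50 (edgeR adjusted p = 4.66e-04), and in MEFs, at 0.46 (edgeR adjusted p = 0.00259). Arc, a neuronal immediate early gene that forms virus-like capsids and is also induced in fibroblasts, was at 6.41 and 28.8 CPM in fl and at 9.98 and 40.9 CPM in AF10-deleted cells. The difference between replicates exceeded that between groups, which overlapped (log2 change 0.55 ± 0.109, edgeR adjusted p = 0.0221, and 0.0571 to 0.523 with 1 library left out).

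Most other immediate early genes were a little higher without passing the test. Of 22 such genes listed outside the AP-1 family, a list that does not hold Arc, Nr4a1 was the 1 called. Of the 22, 17 were positive and the median was 0.18. In DMSO, where 3.37% of all genes were called higher, 10 of the 22 were, with a median of 0.42. Of 8 AP-1 genes 0 were called and 6 were positive, with a median of 0.23, whereas 4 were called higher in DMSO. Fos, the best known of them, was at 75.6 and 239 CPM in fl and at 105 and 293 CPM in AF10-deleted cells (log2 change 0.38, edgeR adjusted p = 0.0768). Btg2, an antiproliferative early gene, was at 0.30 (edgeR adjusted p = 0.133) and Fosb at 0.79 (edgeR adjusted p = 0.146). The relatives of Nr4a1 were near their error, with Nr4a2 at 0.19 ± 0.157 and Nr4a3 at 0.51 ± 0.435. Dusp1, the phosphatase that switches off MAP kinases, was even (log2 change 0.03), at 94.1 and 177 CPM in fl and 96.7 and 179 CPM in AF10-deleted cells. Ier5 was at -0.13 and was not called. Both its AF10-deleted libraries lay below both fl libraries, as did 14% of all genes tested.

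Bckdhb, Ndufs4, 2010111I01Rik and Snhg11 were among the other genes that rose. Bckdhb, the E1 beta subunit of the dehydrogenase that breaks down branched-chain amino acids, was at 20.9 and 20.4 CPM in fl and at 31.6 and 45.6 CPM in AF10-deleted cells. The fl libraries were close to each other and both AF10-deleted libraries lay above them (log2 change 0.89 ± 0.135, edgeR adjusted p = 0.0112, and 7.24e-06 to 0.219 with 1 library left out). The other subunits and the kinase of that complex, looked up afterwards, were not called, with Bckdha at 0.09, Dbt at 0.01, Dld at 0.10 and Bckdk at -0.08. Ndufs4, an accessory subunit of respiratory complex I, went from 49.6 and 37.2 CPM to 58.9 and 56.9 CPM, without overlap. Its log2 change was 0.42 ± 0.084 (edgeR adjusted p = 0.023, and 0.019 to 0.525 with 1 library left out), while Ndufs1, Ndufs3, Ndufs5, Ndufs6, Ndufs7 and Ndufs8 lay between -0.21 and 0.08. 2010111I01Rik, listed by RefSeq as Aopep, aminopeptidase O, was at 79.5 and 83.5 CPM in fl and at 99.2 and 110 CPM in AF10-deleted cells (log2 change 0.36 ± 0.069, edgeR adjusted p = 0.0206). The call was lost whichever of the 4 libraries was left out (adjusted p from 0.0768 to 0.397, edgeR). The gene overlaps Fancc, which was even at 0.03. Snhg11, a long noncoding RNA that hosts small nucleolar RNAs, rose from 9.02 and 14.8 CPM to 16.7 and 21.5 CPM without overlap (log2 change 0.70 ± 0.125, edgeR adjusted p = 0.0112, and 0.0375 to 0.232 with 1 library left out).

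Rpl26, Rps16, Rpl28, Hnrnpa0 and Sf3b5 were also among the genes that fell. Rpl26, a protein of the large ribosomal subunit that also binds p53 mRNA, was at 923 and 896 CPM in fl and at 693 and 630 CPM in AF10-deleted cells. It fell by 0.46 ± 0.076 without overlap (edgeR adjusted p = 0.006, and 0.00436 to 0.202 with 1 library left out). Rps16, of the small subunit, was at 1188 and 1133 CPM in fl and at 903 and 879 CPM in AF10-deleted cells, again without overlap (log2 change -0.38 ± 0.075, edgeR adjusted p = 0.0224, and 0.0397 to 0.434 with 1 library left out). Rpl28 was at 802 and 715 CPM and at 696 and 501 CPM (log2 change -0.36 ± 0.075, edgeR adjusted p = 0.0374, and 0.0197 to 0.603 with 1 library left out). Of 36 ribosomal protein genes on the list, which does not hold Rpl26 and Rpl28, Rps16 was the 1 called, 18 were positive and 18 negative. Their summed level was 39290 and 37210 CPM in fl and 40030 and 36450 CPM in AF10-deleted cells. Many processed pseudogenes share sequence with ribosomal protein genes and RSEM divides such reads, so values of single members are uncertain. Hnrnpa0, an RNA-binding protein that stabilises messages with AU-rich elements, fell from 311 and 280 CPM to 233 and 233 CPM (log2 change -0.34 ± 0.069, edgeR adjusted p = 0.0243). Leaving out any of the 4 libraries ended that call (adjusted p from 0.0632 to 0.373, edgeR). Sf3b5, a small subunit of the SF3B splicing complex, went from 40.8 and 45.8 CPM to 34.6 and 29.6 CPM (log2 change -0.43 ± 0.092, edgeR adjusted p = 0.0439, and 0.019 to 0.586 with 1 library left out). Its partners Sf3b1, Sf3b2, Sf3b3, Sf3b4 and Phf5a, looked up afterwards, lay between -0.13 and 0.09.

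A few calls are uncertain in identity. Rangrf, a Ran GTPase release factor, had 0 reads in both fl libraries and in AF10-deleted replicate 1 but 187 in AF10-deleted replicate 2. Reads of it occurred in 3 of the 12 libraries, the others being Day4_fl_DMSO replicate 2 with 195 and MEF_fl replicate 2 with 37. A single library thus made this call, and no fold is given. Its locus overlaps Slc25a35, which had 33 to 50 counts in the 4 libraries. Rsc1a1 went from 6.08 and 5.21 CPM in fl to 10.1 and 11.5 CPM in AF10-deleted cells (log2 change 0.94 ± 0.162, edgeR adjusted p = 0.0083, and 0.019 to 0.214 with 1 library left out). It is an intronless gene within Ddi2, a protease gene that went the other way at -0.36 (edgeR adjusted p = 0.146), and reads of the pair may be divided between them. Pnp2, which lies beside its near-identical copy, the purine nucleoside phosphorylase Pnp, went from 2.22 and 3.36 CPM to 5.15 and 5.98 CPM (log2 change 1.00 ± 0.213, edgeR adjusted p = 0.0439, lost with any 1 of the libraries left out at 0.124 to 0.445). Pnp, at a far higher level, was at -0.03. Olfr613, named as an olfactory receptor, was at 39.7 and 39.2 CPM in fl and at 49.2 and 55.5 CPM in AF10-deleted cells (log2 change 0.41 ± 0.085, edgeR adjusted p = 0.0377, and 0.0389 to 0.603 with 1 library left out). Olfactory receptors form a large family of similar genes.

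The reprogramming factors and the genes of the new state were not called in the fit of all 12 libraries. Pou5f1 was at 115 and 97.0 CPM in fl and at 90.7 and 93.5 CPM in AF10-deleted cells. Sox2 was at 94.9 and 103 CPM against 84.4 and 87.4 CPM, Klf4 at 180 and 167 CPM against 153 and 142 CPM, and Myc at 282 and 278 CPM against 255 and 257 CPM. For each of the 4 genes both AF10-deleted libraries lay below both fl libraries, as did 14% of all genes tested. The log2 changes were -0.20, -0.20, -0.23 and -0.13 (edgeR adjusted p = 0.603, 0.475, 0.269 and 0.675). In a fit of the 4 SGC0946 libraries alone, Klf4 was called lower (edgeR adjusted p = 0.0194) and the other factors were not called. In DMSO, Pou5f1, Sox2 and Klf4 were called lower, at -0.46, -0.26 and -0.32. Transcripts of the cassette and of the endogenous genes cannot be told apart in these counts. L1td1, an early marker of the pluripotent program, was at 66.8 and 61.7 CPM in fl and 64.0 and 56.5 CPM in AF10-deleted cells (log2 change -0.09), and of 11 pluripotency genes tested, out of 26 listed, 0 were called. Cdh1, the epithelial cadherin, was at 65.3 and 58.1 CPM against 68.2 and 57.0 CPM (log2 change 0.02), and 0 of 17 epithelial genes tested, out of 24 listed, were called. In DMSO 4 of these 17 were called higher, beside 3.37% of all genes tested, with a median of 0.43 against 0.05 under SGC0946.

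The DMSO comparison shares no library with that under SGC0946, and the genes called in either medium were read in both. Choosing genes by their test in 1 medium raises the size of their change there, so the medians below do not compare the size of the effect. Of the 469 genes called higher in DMSO (3.37%), 330 (70.4%) had a positive log2 change under SGC0946, with a median of 0.08 against 0.45 in DMSO, and 4 were called. Of the 470 called lower (3.37%), 375 (79.8%) were negative, with a median of -0.07 against -0.32, and 5 were called. Over all genes tested 58.7% had the same sign in both comparisons, and 49.5% the same sign under SGC0946 and in MEFs. Same-numbered libraries of both day 4 comparisons share a sex and deviate together from their groups, and both comparisons used the same viruses. From the other side, 9 of the 24 genes called under SGC0946 were among the 939 called in DMSO in the same direction. They include Mllt10 (-0.44 in DMSO), Nr4a1 (0.50), Arc (0.65), Snhg11 (0.67), Rsc1a1 (0.67), Postn (-0.29), Igfbp5 (-0.31), Megf6 (-0.43) and Hnrnpa0 (-0.27). Another 4 were called in DMSO in the opposite direction, namely Angptl7 (0.57), Rpl26 (0.33), Rps16 (0.28) and Rangrf. Igf2 (-0.22, edgeR adjusted p = 0.0831) and Lox (-0.01, edgeR adjusted p = 0.963) were not called in DMSO.

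**Figure D3:**
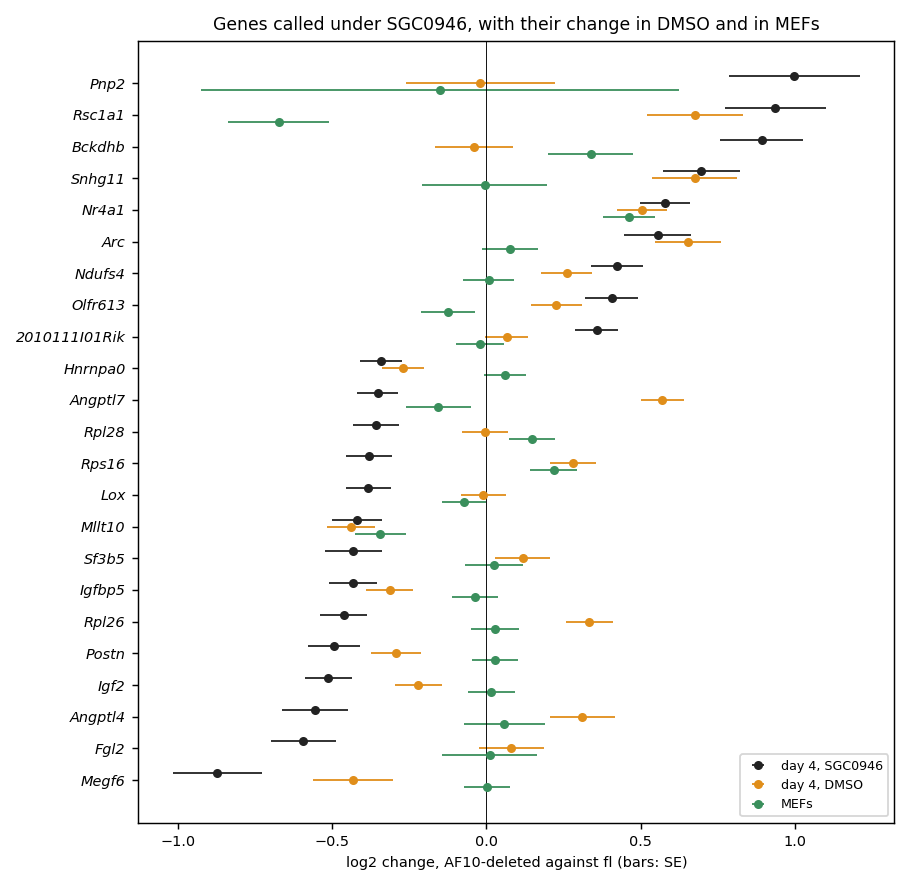
Log2 change after AF10 deletion, with its SE, of 23 of the 24 genes called under SGC0946 (Rangrf left out), on day 4 in SGC0946 (black), on day 4 in DMSO (orange) and in MEFs (green). Nr4a1, Mllt10 and Megf6 lie on the same side of 0 in both day 4 media, while Angptl7, Rpl26 and Rps16 change sides, and the green points of Igf2, Postn and Lox sit near 0.

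A call in one medium and not in the other does not show a difference, which the interaction of deletion and inhibitor tests directly. It uses the same SGC0946 libraries and those in DMSO, so it is not independent of either comparison. In the paired fit 55 genes (0.395%) had an effect of AF10 deletion that differed between the media. Of them, 10 had a higher value under SGC0946 (0.0718%) and 45 a lower one (0.323%). With no replicate block edgeR called 0 genes (303 at an unadjusted p under 0.05). Angptl7 had an effect of -0.35 under SGC0946 and of 0.57 in DMSO, a difference of -0.92 ± 0.096 (edgeR adjusted p = 3.14e-06). Angptl4 (-0.56 and 0.31), Rpl26 (-0.46 and 0.33) and Rps16 (-0.38 and 0.28) also differed, with edgeR adjusted p = 0.00298, 2.42e-04 and 0.00154. Bckdhb differed the other way (0.89 and -0.04, edgeR adjusted p = 0.0392). Its difference ranged from 0.65 to 1.21 over the alternatives, and it did not pass with RLE scaling or with the 8 day 4 libraries alone. For Lox the difference of -0.37 (edgeR adjusted p = 0.118), for Igf2 that of -0.29 (adjusted p = 0.29) and for Igf1 that of -0.76 (adjusted p = 0.0502) did not pass. For Postn, Nr4a1 and Arc the differences of -0.20 ± 0.117, 0.07 ± 0.114 and -0.10 ± 0.153 were within 2 SE of 0.

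Of the 45 genes with a negative interaction, 28 had a log2 change under 0.2 in size under SGC0946. The share of all genes under that size was not determined, so this count does not set them apart. Of the 45, 42 were called higher in DMSO, a pattern that choosing genes by the difference between the media partly fixes. Ier5, an early response gene linked to heat shock factor, was at 93.8 and 93.8 CPM in fl and 90.6 and 81.1 CPM in AF10-deleted cells (-0.13, against 0.63 in DMSO; edgeR adjusted p of the difference = 4.89e-04). Dusp1 differed likewise (0.03 and 0.52, adjusted p = 0.0108). Among epithelial genes, Cdh1 (0.02 and 0.71, adjusted p = 0.031) and the protease inhibitor Spint1 (0.08 and 1.03, adjusted p = 0.0392) were even under SGC0946. Among secreted inflammation genes, the stromelysin Mmp3 (0.06 and 0.64), the adhesion molecule Icam1 (-0.01 and 0.59), the siderophore-binding Lcn2 (-0.22 and 0.87) and the chemokine Ccl2 (0.31 and 0.98) differed with edgeR adjusted p = 0.00631, 0.0118, 0.00431 and 0.0378. The matrix protein Spp1, osteopontin, was at 0.12 and 0.61 (adjusted p = 0.0177). Htra3, a secreted serine protease, was at -0.34 and 0.85, and Ptx3, a soluble pattern recognition protein, at -0.23 and 0.49. Neither was called under SGC0946 in the fit of all 12 libraries. In a fit of the 4 SGC0946 libraries alone both were called lower (edgeR adjusted p = 0.0262 and 0.0208).

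The other named genes with a positive interaction, besides Bckdhb and Rangrf, were lower in DMSO, and their fitted values under SGC0946 were above 0 but did not pass. For Megf9, Prune2, Pik3r3 and Adh1 the edgeR adjusted p under SGC0946 was 0.933, 0.58, 0.43 and 0.326. Megf9, a transmembrane protein with EGF-like repeats, was at 6.47 and 9.29 CPM in fl and 6.25 and 10.6 CPM in AF10-deleted cells under SGC0946 (0.09, with the pairs on either side of 0), against -1.11 in DMSO. Its difference of 1.19 ± 0.181 passed (edgeR adjusted p = 7.31e-04). Prune2, a BCH-domain protein of neural tissue, was at 0.26 and -0.60, and Pik3r3, a regulatory subunit of phosphoinositide 3-kinase, at 0.25 and -0.37 (adjusted p of the difference 0.00404 and 0.0138, edgeR). Adh1, the alcohol dehydrogenase that also oxidises retinol, was low throughout, at 0.91 and 0.72 CPM in fl and 2.08 and 1.13 CPM in AF10-deleted cells. The difference for Adh1 was 2.36 ± 0.493 (edgeR adjusted p = 0.0198). It ranged from 1.93 to 2.80 over the alternatives and did not pass with the 8 day 4 libraries alone.

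**Figure D4:**
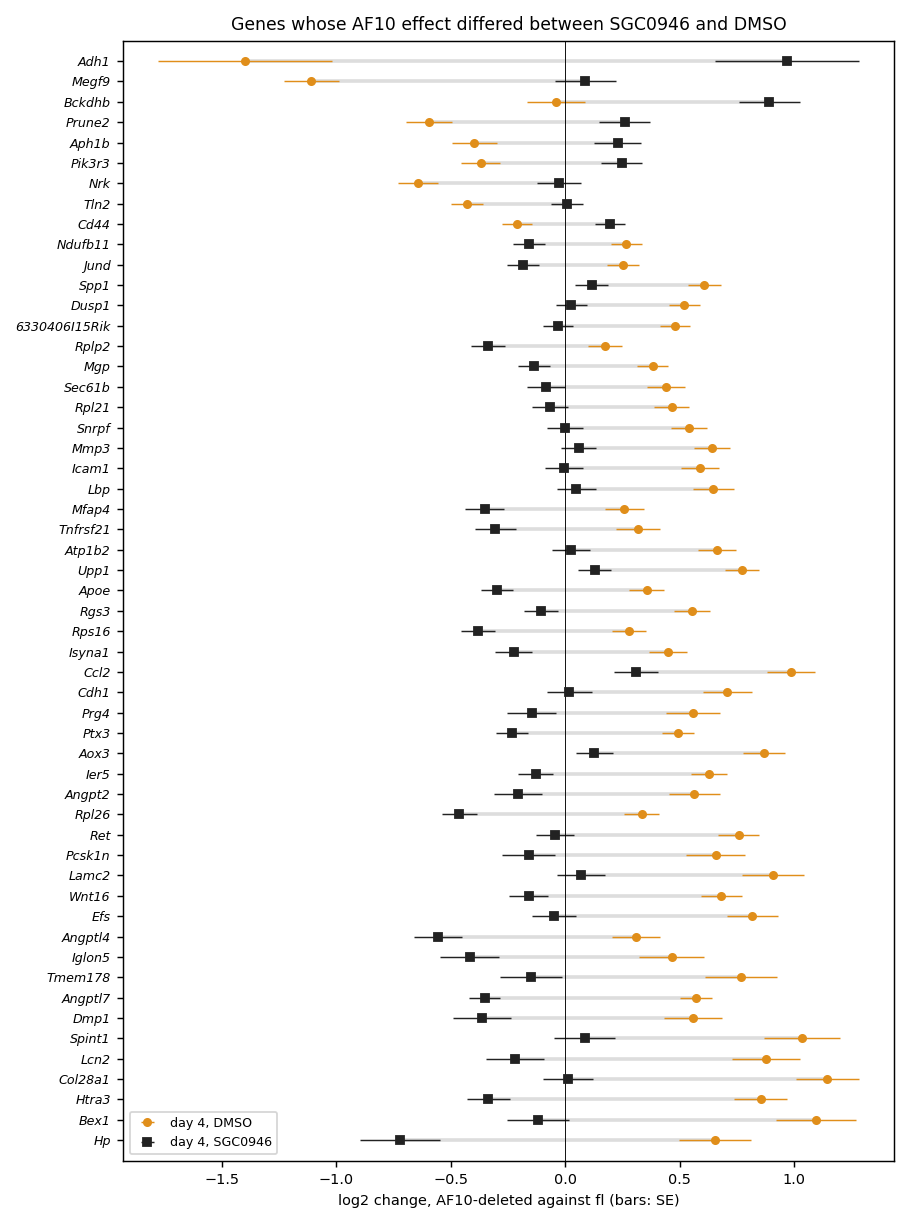
Log2 change after AF10 deletion, with its SE, under SGC0946 (black squares) and in DMSO (orange circles) for 54 of the 55 genes called in the interaction (Rangrf left out), ordered by the difference. Most orange points in the lower part lie to the right of 0 and the black squares beside them gather around 0, with Angptl4, Rpl26 and Angptl7 on its left.

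Calls were rare in the remaining gene groups. Secreted inflammation genes were positive in 21 of 32, with a median of 0.14 (0.48 in DMSO). In DMSO 12 rose and 1 fell, beside 3.37% of all genes each way, while under SGC0946 Igfbp5 alone was called and fell. Members of the TGF-beta pathway were negative in 17 of 21 (median -0.09), mesenchymal regulators in 13 of 19 (median -0.07), Hox genes and their cofactors in 25 of 40 (median -0.07) and WNT pathway genes in 16 of 24 (median -0.12). The antagonist Sfrp2, for example, was at 368 and 383 CPM in fl and 311 and 322 CPM in AF10-deleted cells, without overlap (-0.25, edgeR adjusted p = 0.191). Interferon response genes, of which 34 of 38 were called lower in MEFs (0.84% of all genes were), had 0 calls here and were positive in 28 of 38, with medians of -0.01 within replicate 1 and 0.23 within replicate 2. Proliferation genes were negative in 26 of 36 (median -0.05), and 20 of the 36 had groups that did not overlap, 6 above and 14 below, beside 28.7% of all genes tested (14.7% above and 14% below). Cholesterol and fatty acid synthesis genes were positive in 22 of 31 (median 0.08), while glycolysis, unfolded protein response, p53 and super elongation complex lists had medians between -0.02 and 0.01. Of the 9 genes in the list of DOT1L and its partners Mllt10 was the 1 called; the ENL gene Mllt1 was at -0.20 and AF17, encoded by Mllt6, at 0.04.

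**Figure D5:**
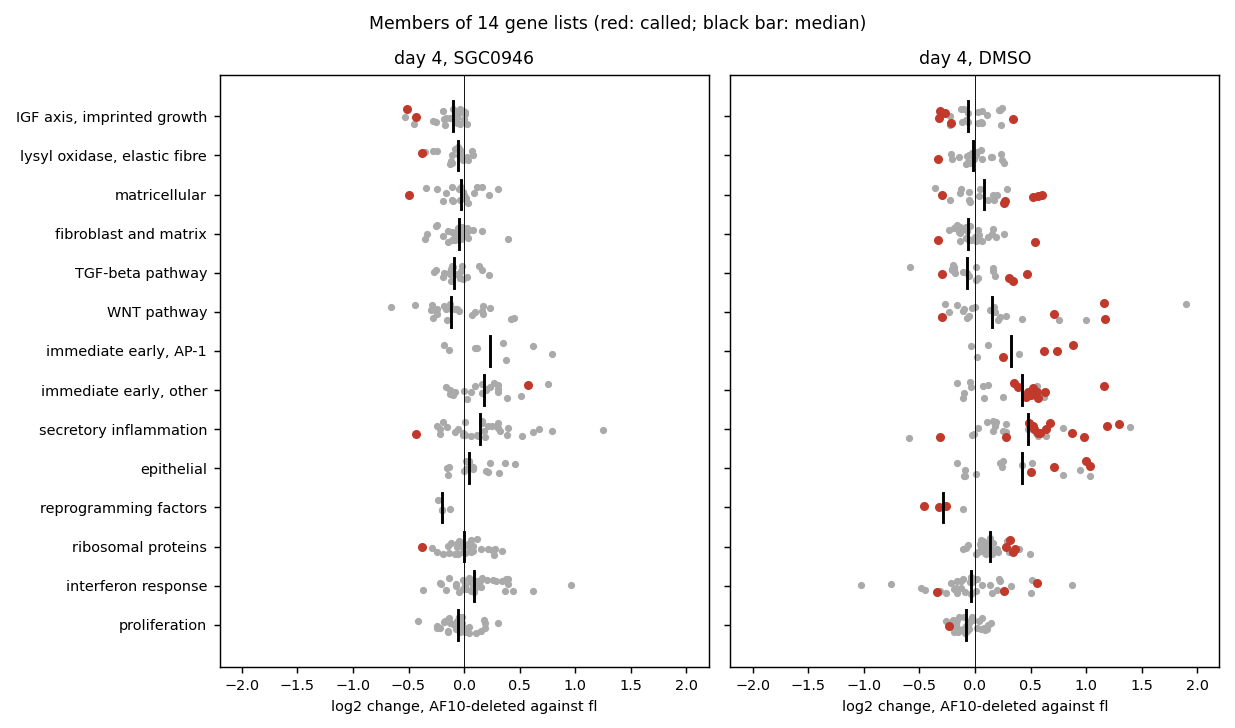
Log2 change after AF10 deletion of the members of 14 gene lists, under SGC0946 (left) and in DMSO (right); points are genes, red ones were called and black bars are medians, with 1 member beyond the axes. Under SGC0946 6 genes are red in 6 of the lists, with Igfbp5 drawn in 2 of them, and the medians of immediate early, secretory inflammation and epithelial genes lie nearer to 0 than in DMSO.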

How the data were processed

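Polyadenylated RNA was made into TruSeq RNA libraries, according to the labels' protocols. RSEM and Bowtie were used with mouse build mm9, per the submitters' processing notes; versions are not given in the sources used here. The deposited tables hold expected counts, TPM and FPKM for 20325 genes, per the file headers; the authors' TPM and FPKM values were not tested. No genome of build mm9 was used here, so coordinates are given for the RefSeq promoter windows alone.

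Rows were joined by transcript identifiers and the expected counts rounded to integers. Genes kept by filterByExpr over the 6 groups (13936) were tested with edgeR 4.0.16 in R 4.3.3: TMM scaling, 1 term per group, a replicate block per stage (day 4 or MEF), all 12 libraries, robust quasi-likelihood F tests and Benjamini-Hochberg adjustment. The fit had 4 residual degrees of freedom, with a median of 22.4 added from other genes. The SE of a log2 change was taken from its F statistic (size over root F). An alternative fit used DESeq2 1.42.0, and the script was tested on simulated data.

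The block was used because the comparison pairs libraries by replicate number. Deviations from group means of same-numbered libraries correlated at 0.286 to 0.737 over 15 pairs of groups, and at 0.413 to 0.534 within day 4. The labels do not name the sources of the cells, and with 2 libraries per group the p-values do not measure the spread between many animals. Named genes were the 4 given markers, the called genes with the same sign in both pairs (up to 15 each way), called members of each list, the 5 strongest interactions each way, and Dot1l, Pou5f1, Sox2, Klf4 and Myc. The members, lists and tests were chosen with earlier results of these data known. Relatives and neighbours of the called genes, Rangrf and further list members were named after values had been seen. Not all of them are marked as such where they appear. Depth limits the precision of genes at a few CPM.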

Additional observations from a re-analysis of the deposited data

Results flagged for a closer look

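The effect of AF10 deletion differed between SGC0946 and DMSO, by the interaction term of the paired edgeR fit, for the 13 named genes below. None of the 13 passed in edgeR with no replicate block, while Ptx3 alone passed in DESeq2 with no replicate block. Each value is the log2 effect under SGC0946 minus that in DMSO. It was negative for Angptl7 (-0.92), Htra3 (-1.19), Rpl26 (-0.80), Ptx3 (-0.73), Ier5 (-0.76), Rps16 (-0.66) and Angptl4 (-0.87). It was positive for Megf9 (1.19), Prune2 (0.85), Pik3r3 (0.62), Adh1 (2.36) and Bckdhb (0.93). With the 8 day 4 libraries alone, Adh1 and Bckdhb did not pass. For Rangrf the fitted 19.04 depends on the prior count, since all its day 4 reads lay in 1 fl library in DMSO and 1 AF10-deleted library in SGC0946.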

How the results depend on the processing

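The pairing decided the calls. With no replicate block edgeR called 0 genes higher and 0 lower under SGC0946, and 0 and 0 in the interaction; with 1 replicate block common to MEFs and day 4 it called 0 and 0, and 1 and 0. DESeq2 with no replicate block called 2 and 0, and 1 and 1. With the block per stage it called 9 and 19, of which 3 and 12 were among the 10 and 14. That DESeq2 fit gave an adjusted p for 16 of the 24 genes, of which 15 were called. A fit of the 4 SGC0946 libraries alone, with the block, gave 78 and 72, and one of the 8 day 4 libraries gave 4 genes higher in the interaction. With no filter on low counts the numbers were 42 and 38, and 37 and 97 in the interaction. Leaving out 1 library gave 3 to 15 genes higher and 0 to 12 lower, and 2 to 15 and 10 to 49 in the interaction. Under SGC0946 with 1 library left out, Dot1l ranged from -0.089 to 0.061, turning positive without fl replicate 1. Megf9 ranged from -0.014 to 0.167, turning negative without AF10-deleted replicate 2. Within replicates 1 and 2 the log2 changes were -0.06 and 0.03 for Dot1l and -0.05 and 0.19 for Megf9. The cause of the turns was not tested. Among the 24 genes, RLE scaling, no filter and the stricter filter ended no call, upper quartile scaling and total counts ended 1 each (Sf3b5), the 8 day 4 libraries 2 and non-robust dispersions 6. List medians moved in 97 of 608 alternatives and list counts in 85 of 1216. Scaling shifted the median of all genes by at most 0.0087. With 2 libraries per group, small changes in genes of low count were not detectable.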
